A study of Homo sapiens with 12 samples.

Results

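The EGFR family of growth factor receptors and its ligands was followed through 10 genes: the receptors EGFR, ERBB2, ERBB3 and ERBB4, and the ligands AREG, EREG, HBEGF, TGFA, BTC and NRG1. They were picked by gene name from a deposited table of 57500 genes. All 10 had a row, and all 10 were among the 27029 genes that passed the filter on low counts, NRG1 and ERBB4 through HCC1806 alone.

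Total RNA was sequenced after rRNA depletion from HCC1806 and MDA-MB-468, established human cell lines from triple-negative breast cancers. Each line carried either a control guide or sgPACT-2, a CRISPR-Cas9 guide against PRKRA, the gene of the double-stranded RNA binding protein PACT. The 4 groups of 3 libraries were HCC1806 with the control guide sgC1, HCC1806 with sgPACT-2, MDA-MB-468 with the control guide sgNTA, and MDA-MB-468 with sgPACT-2. The groups with sgPACT-2 are called PACT-depleted, as labelled. The labels do not say whether the cells were pools or clones, or whether replicates came from separate cultures, so p-values measure only the spread between these libraries. The control guide differed between the lines, so that line and control guide cannot be told apart in a comparison of the lines.

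EGFR, ERBB2, ERBB3 and ERBB4 are receptor tyrosine kinases that signal as pairs. Their ligands are made as membrane-bound precursors that are shed by metalloproteases: AREG, TGFA, EREG, HBEGF and BTC bind EGFR, of which EREG, HBEGF and BTC also bind ERBB4, and NRG1 binds ERBB3 and ERBB4, while ERBB2 has no known ligand and serves as a partner. Active receptors signal through RAS and ERK and through PI3K, and several ligand genes are themselves transcribed in response to ERK signalling. MDA-MB-468 is a line known for extra copies of the EGFR gene; copy number was not analysed here.

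Library totals ran from 18640633 to 24704877 counts in HCC1806 and from 34581754 to 44790741 in MDA-MB-468. Levels are given as CPM, counts per 1000000 counts of a library, scaled by the trimmed mean of M-values (TMM). PRKRA, the targeted gene, had 72.1 to 82.6 CPM in the control libraries of HCC1806 and fell to 36.1 to 37.5 in the depleted ones. In MDA-MB-468 it ranged from 41.1 to 46.9 in controls and from 35.5 to 41.6 in depleted libraries, and the groups overlapped. The guide can disrupt the gene without a lower transcript level, and the name PACT-depleted rests on the labels in MDA-MB-468. The epithelial genes EPCAM and CDH1 were expressed in all 12 libraries, and PGR, the progesterone receptor, did not exceed 0.30 CPM in any. ESR1, the estrogen receptor, was at 18.6 to 24.2 CPM in HCC1806 libraries and 6.27 to 7.51 in those of MDA-MB-468. HCC1806 PACT-depleted replicate 1 was the library whose removal changed the number of calls most: without it, 1792 genes were called with depletion in HCC1806, against 672 with all libraries. Its deviations from its group mean correlated at 0.479 with those of HCC1806 control replicate 1. Results that rest on this depleted library are also given without it.

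**Figure D1:**
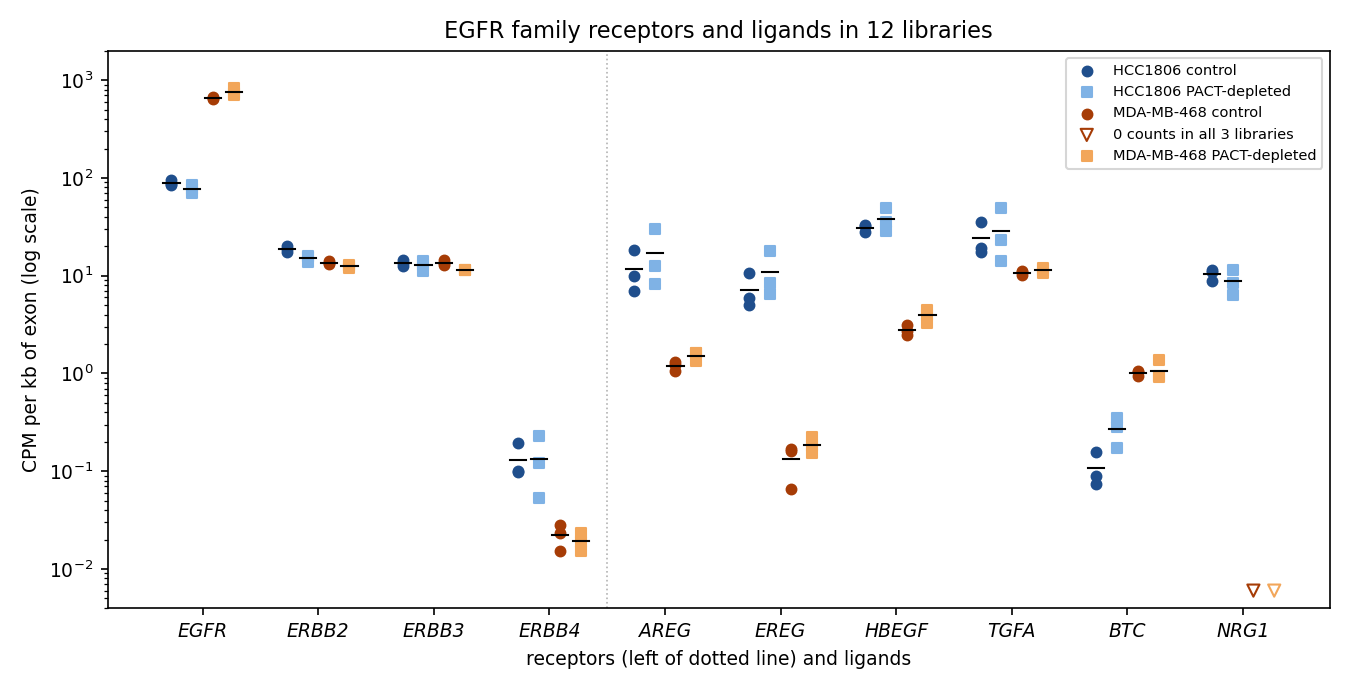
Level of each receptor and ligand in the 12 libraries, in CPM per kilobase of exon on a log axis. Each point is 1 library and each bar the mean of 3; open triangles mark NRG1, with 0 counts in all MDA-MB-468 libraries. EGFR stands above every other member in all 4 groups, at a mean of 88.9 CPM per kb in HCC1806 controls and 661 in MDA-MB-468 controls.

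The first question was how much of each gene the 2 lines made. Levels of different genes were set side by side only per kilobase of exon. In HCC1806 controls, EGFR led with 88.9 ± 5.32 CPM per kb (SD, n = 3), followed by HBEGF at 31.0 ± 2.88, TGFA at 24.1 ± 9.99 and ERBB2 at 18.8 ± 1.38. Next came ERBB3 at 13.5, AREG at 11.7, NRG1 at 10.4 and EREG at 7.14 CPM per kb. ERBB4 at 0.130 and BTC at 0.108 were the lowest. EGFR did not overlap HBEGF, ERBB2 did not overlap ERBB3, and EREG did not overlap ERBB4, while every other pair of neighbours in this order overlapped. In this line HBEGF and TGFA, ligands of EGFR, had means above that of ERBB2, and NRG1, the ligand of ERBB3, had a range that overlapped that of AREG.

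In MDA-MB-468 controls the order was different. EGFR reached 661 ± 15.6 CPM per kb (SD, n = 3), and the next members were ERBB3 at 13.6 ± 0.738 and ERBB2 at 13.5 ± 0.487, whose libraries overlapped. TGFA followed at 10.7, then HBEGF at 2.76, AREG at 1.19, BTC at 1.01, EREG at 0.132 and ERBB4 at 0.0222 CPM per kb. NRG1 had no count in any library. Of the neighbours in this order, only ERBB3 with ERBB2 and AREG with BTC overlapped. Among all 57500 genes of the table, EGFR ranked 4 by its counts in MDA-MB-468 controls and 58 in HCC1806 controls, with no account of length.

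The difference between the control groups was then tested gene by gene in edgeR, in 1 model of all 12 libraries. A gene was called when its Benjamini-Hochberg adjusted p over all genes was under 0.05. Of the 10 members, 9 were called: EGFR and BTC were higher in MDA-MB-468, 7 were lower, and ERBB3 was not called. Among the lower ones, NRG1 and ERBB4 passed the filter on low counts only through HCC1806, where they were higher. The lines differed widely, since 74.2% of all genes were called, 34.2% as higher and 40.1% as lower in MDA-MB-468. The members' share is therefore close to the background. Their median log2 difference was -1.86, against -0.26 over all genes tested, with NRG1 at its bound.

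EGFR, the receptor of most of these ligands, measured 1189, 1063 and 1088 CPM in the HCC1806 control libraries and 8102, 8232 and 8486 CPM in those of MDA-MB-468. Every MDA-MB-468 library was far above every HCC1806 library. The log2 difference was 2.89 (SE 0.10, edgeR adjusted p = 9.6e-14), or 7.43-fold. EGFR alone took 0.116% to 0.120% of all counts in HCC1806 controls and 0.711% to 0.759% in MDA-MB-468 controls.

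The genes beside EGFR on chromosome 7p11.2 were higher as well. All 4 neighbours listed were called as higher in MDA-MB-468. LANCL2, which follows EGFR along the chromosome, went from a mean of 5.17 to 952 CPM, a log2 difference of 7.52 (SE 0.13, edgeR adjusted p = 7.7e-17). SEC61G, a subunit of the protein translocation channel of the endoplasmic reticulum, went from 4.73 to 381 CPM, and VOPP1 from 35.2 to 1737 CPM. The log2 differences of these 3 genes, 7.52, 6.33 and 5.62, exceeded that of EGFR itself. The fourth neighbour, EGFR-AS1, was higher by 1.36. It lies on the other strand within EGFR (GRCh38, chromosome 7, 55019021 to 55211628, plus strand), the strand setting of the counting is not given in the sources used here, and its reads cannot be told apart from those of EGFR.

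ERBB2, the ligand-less partner receptor known as HER2, measured 181, 193 and 209 CPM in HCC1806 controls and 138, 136 and 145 in MDA-MB-468 controls. The lines did not overlap, and MDA-MB-468 was lower by a log2 difference of -0.47 (SE 0.09, edgeR adjusted p = 0.000215). Of the genes around ERBB2 on 17q12, GRB7 and STARD3 were not called and stood at 0.06 and 0.08 log2 units below HCC1806. MIEN1 and PGAP3, whose exons overlap those of ERBB2 on the other strand, were called as higher by 0.58 and 0.44. PGAP3 lost its call with library size only (adjusted p = 0.390) and without HCC1806 control replicate 1 (0.120), MDA-MB-468 control replicate 2 (0.0764) or replicate 3 (0.0583).

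ERBB3, a receptor with little kinase activity of its own that pairs with ERBB2 and recruits PI3K, measured 113, 132 and 120.5 CPM in HCC1806 controls and 117, 122 and 130.1 in MDA-MB-468 controls. The groups overlapped throughout, and the log2 difference was 0.02 (95% interval -0.19 to 0.22, edgeR adjusted p = 0.893). Its sign turned under other scalings, to -0.026 with DESeq2 and with RLE size factors and to -0.24 with library size only, and it was called as lower with a filter at a mean of 50 counts (-0.30, adjusted p = 0.0161). Library size only moved the median of all genes by -0.25. Exons of ERBB3 overlap AC034102.2 on the same strand, so reads of that gene may be split or shared.

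ERBB4, which also binds neuregulins, had few counts. It had 60, 29 and 30 counts in HCC1806 controls (2.502, 1.298 and 1.27 CPM) and 13, 10 and 8 counts in MDA-MB-468 controls (0.362, 0.304 and 0.200 CPM). All MDA-MB-468 libraries lay below all HCC1806 libraries, and the log2 difference was -2.54 (SE 0.52, edgeR adjusted p = 0.000285). ERBB4 passed the filter on low counts only through HCC1806, the line where it was higher, so its call as lower is not independent of that filter.

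Of the 6 ligand genes, AREG, EREG, HBEGF, TGFA and NRG1 were called as lower in MDA-MB-468, the line with more EGFR, and BTC was called as higher. EREG, AREG and BTC are neighbours on chromosome 4q13.3, and there EREG and AREG differed in the opposite direction to BTC. Their promoters are shown because the 3 genes share a locus and differed in opposite directions; they were chosen after the values were seen. Each window runs from 250 bases before to 50 bases after the RefSeq start site, 5′ to 3′ on the gene's own strand, from RefSeq on GRCh38.p14. Capitals mark letters that match a searched motif: the cyclic AMP response element (CRE, TGACGTCA) in AREG, 65 bases before the start, and an NF-kappaB motif in BTC, 29 bases after it.
EREG, chr4:74364895-74365194, plus strand: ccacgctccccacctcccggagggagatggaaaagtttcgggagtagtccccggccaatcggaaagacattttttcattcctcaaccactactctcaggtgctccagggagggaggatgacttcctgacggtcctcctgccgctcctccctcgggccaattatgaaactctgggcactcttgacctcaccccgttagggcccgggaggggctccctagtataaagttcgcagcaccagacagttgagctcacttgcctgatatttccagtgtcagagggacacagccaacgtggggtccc
AREG, chr4:74444886-74445185, plus strand: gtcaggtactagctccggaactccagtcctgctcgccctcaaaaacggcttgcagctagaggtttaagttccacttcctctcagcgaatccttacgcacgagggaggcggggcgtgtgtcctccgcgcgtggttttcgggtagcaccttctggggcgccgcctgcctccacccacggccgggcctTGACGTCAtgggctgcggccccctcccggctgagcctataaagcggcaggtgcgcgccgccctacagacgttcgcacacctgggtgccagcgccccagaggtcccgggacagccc
BTC, chr4:74794474-74794773, minus strand: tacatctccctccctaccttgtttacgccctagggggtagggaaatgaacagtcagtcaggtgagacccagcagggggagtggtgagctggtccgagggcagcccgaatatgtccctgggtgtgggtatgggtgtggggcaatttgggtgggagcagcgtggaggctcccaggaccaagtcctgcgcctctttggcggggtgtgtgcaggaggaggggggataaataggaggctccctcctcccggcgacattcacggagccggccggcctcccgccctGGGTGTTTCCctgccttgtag
The motifs searched on both strands were AP-1 (TGANTCA), CRE, NF-kappaB and a C/EBP-ATF response element (TGATGNAA). The EREG window held none of these letters. Of all 35116 promoter windows of this length, 7.71% held the AP-1 letters, 1.85% the CRE, 5.68% the NF-kappaB and 3.62% the C/EBP-ATF letters. Of the 10 windows of the 8 members in the table, AP-1 letters stood in ERBB2 (TGATTCA) and at 2 places in the downstream window of EGFR. A match is a run of letters, and binding was not measured.

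EREG, epiregulin, showed the largest measurable gap among the ligands of EGFR. It had 60.5, 28.4 and 33.6 CPM in HCC1806 controls and 0.919, 0.973 and 0.374 in MDA-MB-468 controls, the latter from 33, 32 and 15 counts. The lowest HCC1806 library was far above the highest of MDA-MB-468, with a log2 difference of -5.78 (SE 0.44, edgeR adjusted p = 1.9e-09), or 54.8-fold lower. AREG, amphiregulin, had 30.2, 11.4 and 16.3 CPM against 2.15, 2.01 and 1.75, a log2 difference of -3.30 (SE 0.42). Its groups did not overlap either.

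HBEGF, the heparin-binding ligand, had 100.1, 83.8 and 97.2 CPM in HCC1806 controls and 8.25, 7.42 and 9.36 in MDA-MB-468 controls. The log2 difference was -3.49 (SE 0.18, edgeR adjusted p = 1.2e-11), with a narrow spread in both lines. TGFA, transforming growth factor alpha, had 177, 86.2 and 96.2 CPM against 54.8, 50.3 and 54.1, a log2 difference of -1.17 (SE 0.32, adjusted p = 0.00324). It was the ligand gene with the smallest gap, and HCC1806 control replicate 1 was its high library. Without that library the log2 difference of TGFA was -0.76, its lowest size over the 12 fits made with 1 library removed, and it was still called (adjusted p = 0.0385).

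BTC, betacellulin, went the other way at a low level. It had 5, 10 and 6 counts in HCC1806 controls (0.209, 0.448 and 0.254 CPM) and 104, 88 and 120 counts in MDA-MB-468 controls (2.90, 2.68 and 3.00 CPM). The groups did not overlap, and the log2 difference was 3.23 (SE 0.37, edgeR adjusted p = 4.8e-07). NRG1, neuregulin 1, had 124, 99.96 and 130.3 CPM in HCC1806 controls, from 2233 to 3077 counts, and 0 counts in all 6 MDA-MB-468 libraries. Taking a floor of 3 counts per library, NRG1 was at least 1095-fold lower in MDA-MB-468, a bound that covers counting error only.

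**Figure D2:**
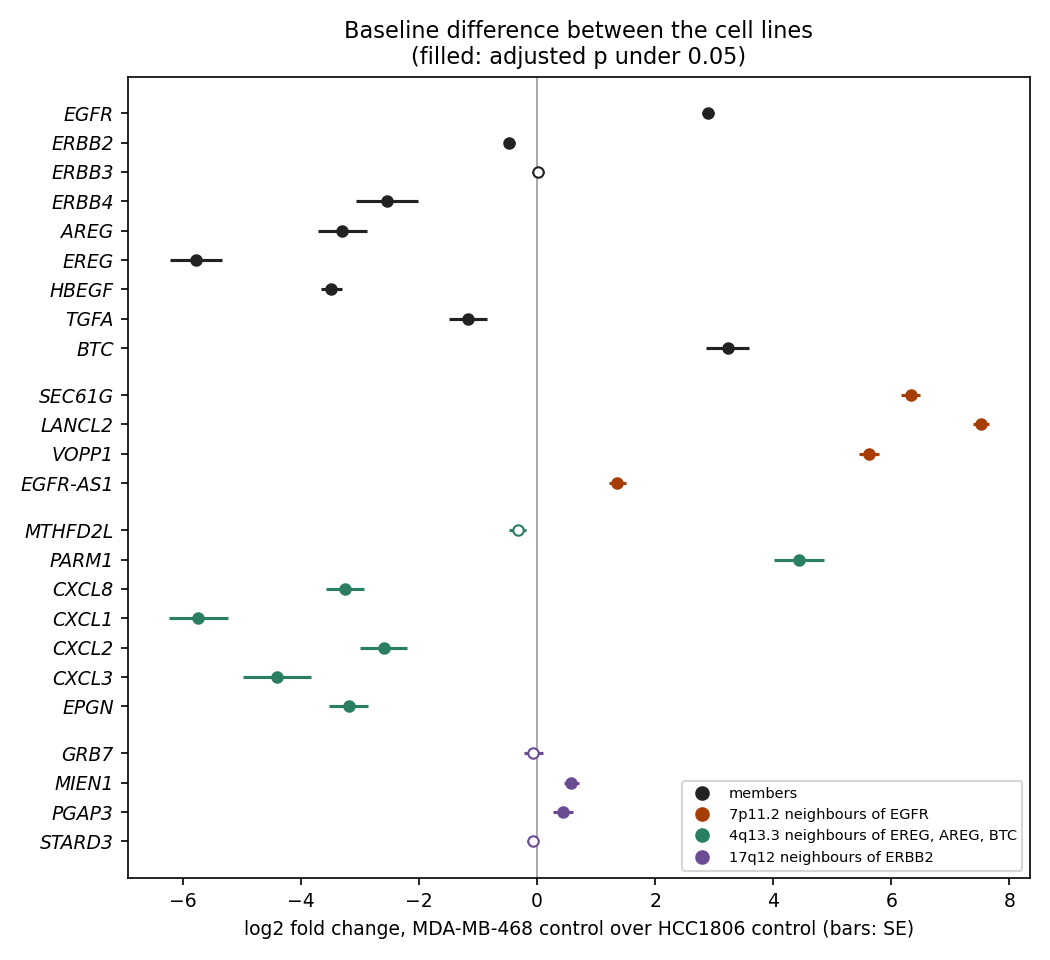
Log2 difference between the control groups, MDA-MB-468 over HCC1806, with SE, for 9 members and for listed neighbours of EGFR, of the EREG, AREG and BTC locus, and of ERBB2. Filled points had an adjusted p under 0.05; NRG1, with 0 counts in MDA-MB-468, is not drawn. SEC61G, LANCL2 and VOPP1 lie to the right of EGFR at 2.89, and EREG and CXCL1 lie farthest to the left.

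Around EREG, AREG and BTC, the 7 listed neighbours on 4q13.3 comprised 5 called as lower in MDA-MB-468, 1 called as higher and 1 not called. The lower genes included EPGN, which encodes epigen, another EGFR ligand, at a log2 difference of -3.19 (5.40 to 0.587 CPM), and the chemokine genes CXCL1 at -5.74 and CXCL8 at -3.25. PARM1, on the far side of BTC, was higher by 4.44, from a mean of 0.323 to 7.21 CPM. MTHFD2L, which lies between the chemokine genes and EPGN, was not called in edgeR, though its unadjusted p was under 0.05 and DESeq2 called it. Of the other EGF family ligands, 4 of 5 listed passed the filter. NRG4 (-5.01), EGF (-1.89) and EPGN were lower, and NRG2 was higher by 1.25.

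The genes that act around the receptors are to be read against the same 74.2% of all genes called. Of 5 genes for ligand shedding, FRMD8, which stabilises the iRhom carriers of the protease ADAM17, was higher by 1.03, RHBDF1 and RHBDF2, the iRhoms themselves, were lower by 0.98 and 0.39 on the log2 scale, and ADAM10 and ADAM17 were not called. Of 16 feedback inhibitors, 9 were higher and 5 lower in MDA-MB-468. LRIG1, which promotes degradation of the receptors, was higher by 3.70 (9.32 to 121 CPM), and SPRY2 and SPRY1, inhibitors of the RAS to ERK route, by 2.64 and 2.20. Of 27 adaptors and kinases next to the receptors, 17 were higher and 3 lower, and the smallest adjusted p values were those of PIK3R1, the regulatory subunit of PI3K, at a log2 difference of 2.99, STAT3 at 2.02 and AKT2 at 1.95. Of 15 genes that ERK signalling is known to drive, 4 were higher and 5 lower. Among them FOSL1, an AP-1 subunit, was lower by 3.23 on the log2 scale (86.7 to 9.28 CPM) and EPHA2 by 2.31.

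The next question was whether PACT depletion changed the receptors and ligands in HCC1806. None of the 10 members passed in edgeR, where 2.49% of all genes were called. Unadjusted p was under 0.05 for 3 of 10, ERBB2, EGFR and BTC, against 14.5% of all genes. DESeq2 called 2 of 10, ERBB2 and BTC, against 7.52% of the genes to which it gave an adjusted p. It gave none to ERBB4. In ERBB2, EGFR and BTC the control and depleted libraries did not overlap, as in 16.7% of all genes tested. The median log2 fold change was 0.16 over the members and 0.01 over all genes.

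EGFR measured 1189, 1063 and 1088 CPM in the HCC1806 controls and 1051, 954 and 888 in the depleted libraries. Every depleted library lay below every control, and the log2 fold change was -0.21 (SE 0.09, edgeR adjusted p = 0.316). It was -0.09 with library size only, a scaling that moved the median of all genes by 0.12. ERBB2 measured 181, 193 and 209 CPM in controls and 142, 162 and 160.0 in depleted libraries, again without overlap. Its log2 fold change was -0.33 (SE 0.09, edgeR adjusted p = 0.0795). ERBB2 passed with DESeq2 (adjusted p = 0.00892) and with a replicate block within each line, a fit added after seeing the data (0.0141). It did not pass with HCC1806 fitted alone (0.363) or with library size only, where it was at -0.20 (edgeR adjusted p = 0.330).

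ERBB3 measured 113, 132 and 120.5 CPM in controls and 100.04, 117 and 129 in depleted libraries, with overlap and a log2 fold change of -0.08 (95% interval -0.28 to 0.13). With library size only its sign turned, to 0.048. ERBB4 ranged from 1.27 to 2.502 CPM in controls and from 0.686 to 2.97 in depleted libraries, and its interval, -0.84 to 0.96, left the direction undetermined at 14 to 89 counts per library.

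BTC was the ligand with separated groups in HCC1806. It had 5, 10 and 6 counts in controls and 10, 23 and 24 in depleted libraries, or 0.209, 0.448 and 0.254 CPM against 0.490, 0.997 and 0.801. All 3 depleted libraries were above all 3 controls, with a log2 fold change of 1.34 (SE 0.41, edgeR adjusted p = 0.103). BTC passed with DESeq2 (adjusted p = 0.0475) and without HCC1806 PACT-depleted replicate 1 (0.0314), and did not pass with the replicate block within each line (0.0539). NRG1 measured 124, 99.96 and 130.3 CPM in controls and 131, 96.4 and 72.1 in depleted libraries, with overlap and a log2 fold change of -0.24 (SE 0.18, edgeR adjusted p = 0.629). Without HCC1806 PACT-depleted replicate 1 it was -0.49, with an adjusted p of 0.0455, and without PACT-depleted replicate 3 it was -0.056 (0.944).

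The other 4 ligand genes had the same order of libraries within each group. AREG had 30.2, 11.4 and 16.3 CPM in controls and 49.97, 20.7 and 13.6 in depleted replicates 1 to 3. EREG had 60.5, 28.4 and 33.6 CPM in controls and 103, 48.1 and 36.9 in depleted libraries. TGFA had 177, 86.2 and 96.2 CPM against 246, 115 and 70.1, and HBEGF had 100.1, 83.8 and 97.2 against 148, 107 and 86.9. In all 4 genes replicate 1 was the highest library of the controls and of the depleted group, replicate 2 was the lowest control, and replicate 3 was the lowest depleted library. The ranges of the groups overlapped in each.

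Set against the control of the same number, EREG was 1.70, 1.69 and 1.10 times as high in the depleted libraries, and AREG 1.65, 1.82 and 0.837 times. HBEGF was at 1.48, 1.27 and 0.894 times its control, and TGFA at 1.39, 1.34 and 0.729 times. In the fit without a block, the log2 fold changes were 0.61 (SE 0.32, edgeR adjusted p = 0.401) for EREG, 0.53 (SE 0.36, 0.572) for AREG, 0.28 (SE 0.16, 0.470) for HBEGF and 0.26 (SE 0.32, 0.806) for TGFA. With the replicate block within each line EREG passed (0.56, SE 0.14, adjusted p = 0.0208), and AREG, HBEGF and TGFA did not. EREG and AREG also passed with no filter on low counts (adjusted p = 0.00116 and 0.0451). Without HCC1806 PACT-depleted replicate 1, EREG was at 0.05 and HBEGF at 0.04, and AREG and TGFA changed sign, to -0.17 and -0.37. In the fit without a block, the size of these 4 values, and the direction for AREG and TGFA, thus changed when that library was left out. Control replicate 1, the highest control in each of these genes, stayed in that fit. No fit left out both libraries of that number.

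**Figure D3:**
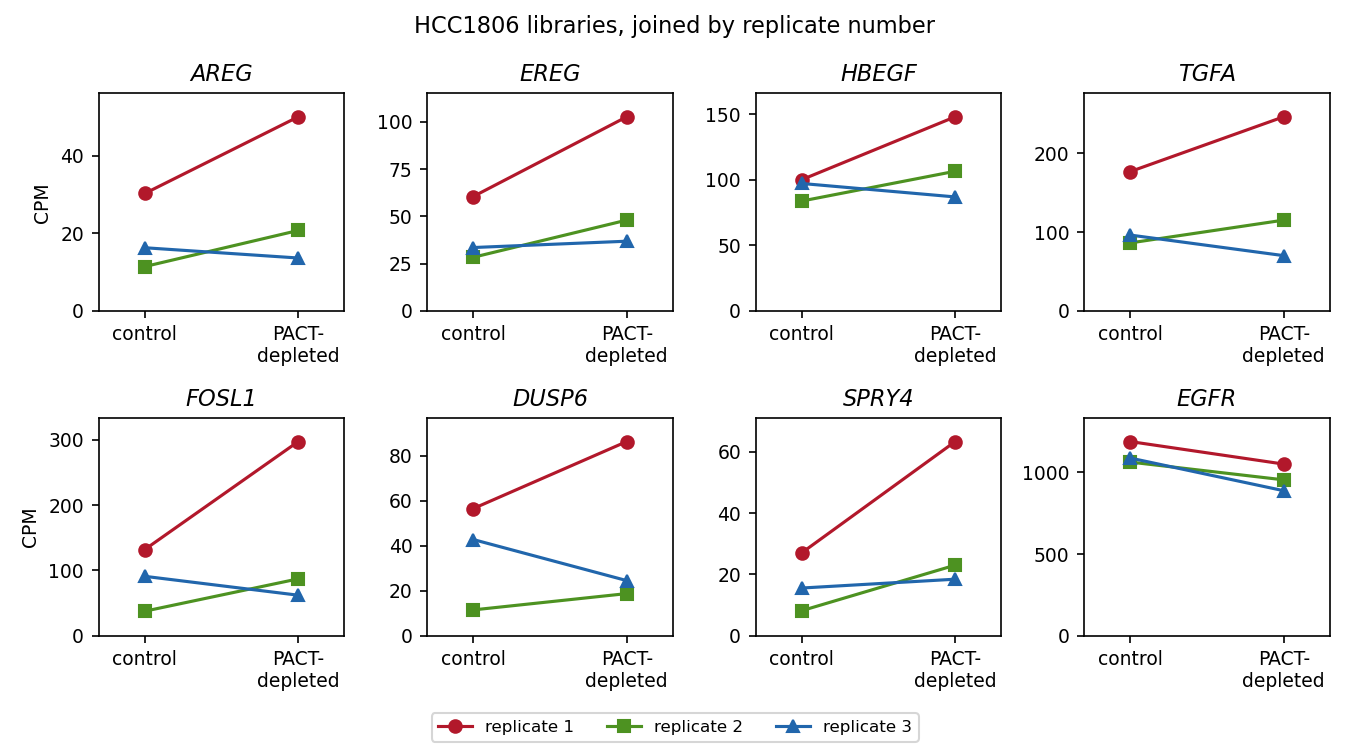
CPM of 4 ligand genes, 3 genes driven by ERK signalling and EGFR in the HCC1806 libraries, each line joining the control and the PACT-depleted library of the same replicate number. Replicate 1 is the highest point on both sides in all 8 panels. EGFR spans 1063 to 1189 CPM in controls and 888 to 1051 in depleted libraries, lower along all 3 lines.

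Genes of ERK output followed the same libraries. Replicate 1 was the highest in both HCC1806 groups for 11 of the 15 listed genes and for 5 of the 10 members, against 20.8% of all genes tested. FOSL1 had 132, 37.5 and 90.9 CPM in controls and 297, 87.0 and 61.96 in depleted libraries, and DUSP6, a phosphatase that ERK signalling induces against itself, had 56.5, 11.5 and 42.8 against 86.4, 18.7 and 24.5. The list had 0 genes called in HCC1806 in edgeR, 0 in DESeq2, and 2 of 15 at an unadjusted p under 0.05, against 14.5% of all genes. Of the 15, 13 had a positive log2 fold change (median 0.16), against 50.9% of all genes (median 0.01). The nearest to the threshold was SPRY4, an inhibitor of the RAS to ERK route, at 27.0, 8.15 and 15.5 CPM in controls and 63.3, 23.0 and 18.4 in depleted libraries. Its log2 fold change was 1.04 (SE 0.38, edgeR adjusted p = 0.189), and it passed with the replicate block within each line (0.98, adjusted p = 0.00183). Set against the control of the same number, SPRY4 was 2.34, 2.82 and 1.19 times as high. Without HCC1806 PACT-depleted replicate 1 SPRY4 was at 0.29 (adjusted p = 0.690), in a fit without a block that kept control replicate 1. It was called in 0 of the 12 such fits made with 1 library removed. The part of the replicate in these values was not tested apart from those fits.

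Of the lists around the receptors, 3 had a called gene in HCC1806. ERRFI1, which encodes MIG6, an inhibitor that binds the EGFR kinase domain directly, rose from 55.7, 50.4 and 54.1 CPM to 92.99, 75.4 and 84.2, without overlap. Its log2 fold change was 0.66 (SE 0.11, edgeR adjusted p = 0.00296), and it was called in all 12 fits made with 1 library removed, but not with HCC1806 fitted alone (0.0528). It was the 1 gene called of 16 feedback inhibitors. EGF, the ligand that names the family, fell from 39.6, 44.2 and 40.3 CPM to 22.9, 27.4 and 29.1, a log2 fold change of -0.64 (SE 0.14, edgeR adjusted p = 0.0183). It was the 1 gene called of 4 other ligands tested. EGF lost its call with library size only (0.0764), with HCC1806 alone (0.106), without HCC1806 control replicate 2 (0.0723) and without HCC1806 PACT-depleted replicate 2 (0.0533). FRMD8 rose from 29.9, 36.2 and 37.1 CPM to 53.8, 44.4 and 42.5, the 1 called of 5 shedding genes (0.45, SE 0.11, adjusted p = 0.0453), and it kept its call in 1 of the 12 fits made with 1 library removed, and lost it with RLE size factors (0.0621) and with HCC1806 alone (0.240). DESeq2 called the same 3 genes and ADAM10, a shedding protease (-0.35, edgeR adjusted p = 0.0569). None of the 27 adaptors passed in edgeR or in DESeq2, 1 had an unadjusted p under 0.05 (STAT3, 0.19), and their values ran from -0.22 to 0.34.

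In MDA-MB-468 no member passed either. Of the 9 members with counts, edgeR called 0, against 0.170% of all genes. DESeq2 called 0, against 0.484% of the genes to which it gave an adjusted p. Unadjusted p was under 0.05 for 2 of 9, HBEGF and ERBB3, against 5.27% of all genes. Ranges did not overlap for 5 of 9, against 13.1% of all genes tested. EGFR, HBEGF and AREG lay above their controls, as 6.20% of all genes did, and ERBB2 and ERBB3 below them, as 6.94% did. The median log2 fold change was 0.09 over the 9 members and -0.01 over all genes.

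EGFR measured 8102, 8232 and 8486 CPM in the MDA-MB-468 controls and 9201, 8931 and 10335 in the depleted libraries. All depleted libraries lay above all controls, with a log2 fold change of 0.20 (SE 0.09, edgeR adjusted p = 0.950). With the line fitted alone EGFR was at 0.21 (edgeR adjusted p = 0.0713). ERBB2 went from 136 to 145 CPM in controls to 124 to 132 in depleted libraries (-0.12, SE 0.09). ERBB3 measured 117, 122 and 130.1 CPM in controls and 102, 104 and 104 in depleted libraries, below all controls, at -0.25 (SE 0.10, adjusted p = 0.853). With the line fitted alone ERBB3 was at -0.23 (edgeR adjusted p = 0.0949). ERBB4 had 7 to 13 counts per library in both groups, too few for a direction (95% interval -1.34 to 0.93). With the line alone and a replicate block, added after seeing the data, EGFR (edgeR adjusted p = 0.00323) and ERBB3 (0.00241) passed. Whether same-numbered libraries of this line are pairs is not settled.

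HBEGF was the ligand with the clearest separation in MDA-MB-468. It had 8.25, 7.42 and 9.36 CPM in controls and 12.0, 10.0 and 13.5 in depleted libraries, each depleted library above each control. The log2 fold change was 0.50 (SE 0.17, edgeR adjusted p = 0.655), and HBEGF passed when the line was fitted alone (0.51, adjusted p = 0.0357). AREG had 2.15, 2.01 and 1.75 CPM against 2.65, 2.23 and 2.65, a log2 fold change of 0.35 (95% interval -0.51 to 1.21). EREG had 0.919, 0.973 and 0.374 CPM against 1.28, 0.872 and 1.05 with overlap, at 0.53 (SE 0.53). TGFA stayed between 50.3 and 54.8 CPM in controls and between 53.3 and 59.9 in depleted libraries, and BTC between 2.68 and 3.00 and between 2.59 and 3.82. The replicates of this line lay close together: among the members, the largest gap between libraries of 1 group was 2.60-fold, for EREG at 15 to 33 counts, and TGFA varied 1.09-fold in controls against 2.05-fold in the controls of HCC1806.

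**Figure D4:**
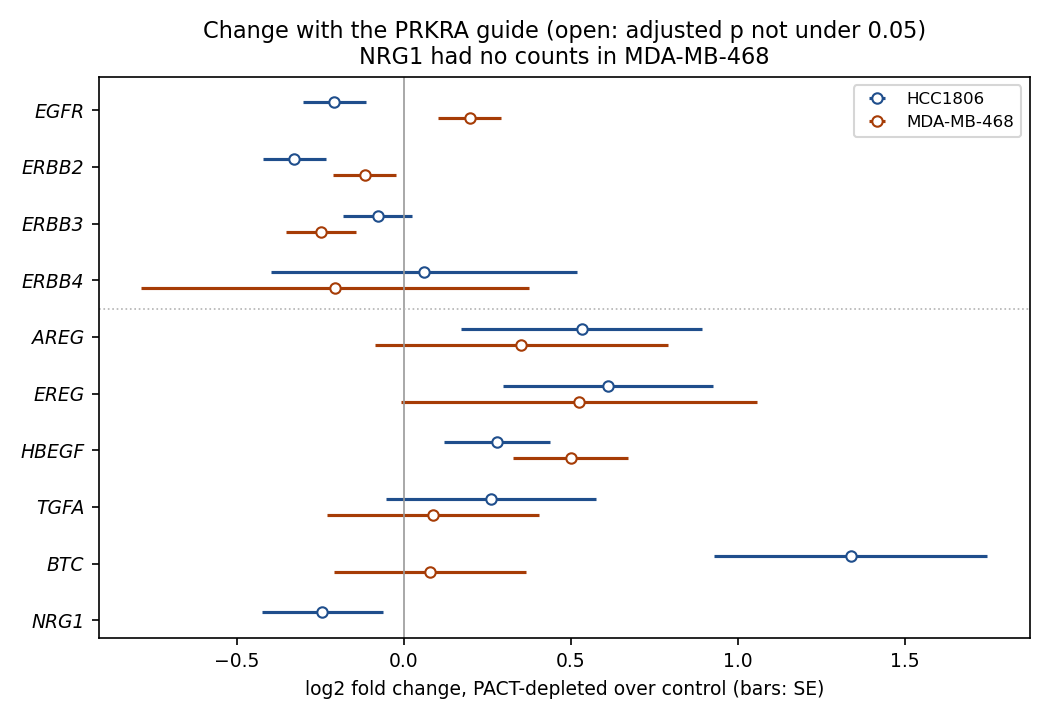
Log2 fold change of each member with the PRKRA guide, PACT-depleted over control, with SE, in HCC1806 and MDA-MB-468. All points are open because no adjusted p was under 0.05; NRG1 had no counts in MDA-MB-468. EGFR lies at -0.21 in HCC1806 and at 0.20 in MDA-MB-468, and BTC at 1.34 and 0.08 in the same order.

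The lists around the receptors held 0 called genes in MDA-MB-468 in edgeR and 0 in DESeq2. Unadjusted p was under 0.05 for 1 of 16 feedback inhibitors, 1 of 15 ERK output genes, 0 of 27 adaptors, 0 of 5 shedding genes and 0 of 4 other ligands. The feedback inhibitor was ERRFI1, at 84.9, 79.0 and 82.2 CPM in controls and 116, 96.3 and 109 in depleted libraries. These groups did not overlap, and the log2 fold change was 0.39 (SE 0.10, adjusted p = 0.313). ERRFI1 passed with the line fitted alone (0.40, adjusted p = 0.000966). The ERK output gene was CCND1, which encodes cyclin D1, at 0.31 (SE 0.12, adjusted p = 0.788), and it also passed with the line fitted alone (0.32, adjusted p = 0.0244).

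The last question was whether the effects of depletion differed between the lines. The difference, MDA-MB-468 effect minus HCC1806 effect, was called by edgeR for 0 of the 9 members tested and 0.122% of all genes. DESeq2 called 0 of 9, against 0.955% of the genes to which it gave an adjusted p. Unadjusted p in edgeR was under 0.05 for EGFR and BTC, against 8.39% of all genes. For EGFR the difference was 0.41 (SE 0.13, edgeR adjusted p = 0.371), with every depleted library below its controls in HCC1806 and above them in MDA-MB-468. That arrangement was found in 69 genes of all those tested, or 0.255%. Without HCC1806 PACT-depleted replicate 1 the difference was 0.49, with an adjusted p of 0.0488. That fit had no block and kept control replicate 1, the highest HCC1806 control for EGFR. It was the 1 fit of 12 with 1 library removed in which the EGFR difference passed, and the edgeR adjusted p reached 0.631 in another. For BTC it was -1.26 (SE 0.50, adjusted p = 0.489). The other 7 members had differences from -0.27 to 0.22. For the 3 listed genes called in HCC1806 the difference did not pass in edgeR: it was -0.27 (SE 0.15, adjusted p = 0.654) for ERRFI1, 0.74 (SE 0.20, 0.211) for EGF and -0.57 (SE 0.16, 0.244) for FRMD8. The difference of EGF passed with DESeq2 (adjusted p = 0.0431), with no filter on low counts (0.0493) and with the replicate block within each line (0.0418).

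Marker genes of the epithelium moved beside these values in HCC1806. Of 5 epithelial markers, EPCAM fell by 0.55 on the log2 scale (edgeR adjusted p = 0.0335) and CDH1 by 0.38 (0.0373), and of 5 basal or squamous markers KRT5 fell by 0.92 (0.0106). The other markers of these lists were not called, and edgeR called 2.49% of all genes in this line. The epithelial markers summed to 1867 to 2114 CPM in HCC1806 controls and 1352 to 1602 in depleted libraries, and the basal ones to 1173 to 1489 and 811 to 1018. In MDA-MB-468 none of these 10 markers was called by edgeR, and the sums of the control and depleted libraries overlapped for both lists. Of 8 markers of fibroblasts, immune cells and endothelium, 6 were tested and edgeR called none in either line. They summed to 33.1 to 46.2 CPM in HCC1806 controls and 40.7 to 54.0 in depleted libraries. In MDA-MB-468 the sums were 114 to 127 CPM in controls and 96.0 to 103 in depleted libraries, without overlap, and most of this was CD14, a monocyte marker, at means of 98.7 and 78.6 CPM. In HCC1806 CD3E, which marks T cells, had no count. In bulk RNA, fewer cells that express a gene and less RNA of it per cell cannot be told apart, and the part of these markers in the receptor and ligand values was not tested.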

How the data were processed

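Per the labels, libraries were built from rRNA-depleted total RNA (NEBNext Ultra II). The submitters' processing notes name Trimmomatic 0.36, STAR 2.5.2b, featureCounts, Subread 1.5.2 and GRCh38; the strand setting is not given in the sources used here. The deposited table holds raw counts per Ensembl gene, 12 libraries. Gene lengths and positions came from GENCODE 29, which matched 56898 of 57500 genes.

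edgeR 4.0.16 (R 4.3.3) fitted 1 quasi-likelihood model (two-sided) of all 12 libraries with TMM scaling and filterByExpr. CPM are given per library or as mean ± SD over 3, and 95% intervals are 1.96 SE either side. DESeq2 1.42.0, other scalings and filters, each line alone, replicate blocks and leaving out each library were alternatives; the replicate blocks within a line were added after seeing the data. The code was tested on simulated data. Python 3.11.15 with matplotlib 3.10.9 drew the figures.

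The named genes were the 10 members and, of each list, the 3 called genes with the smallest adjusted p in a comparison, or the 1 with the smallest p where none was called; other genes were named after their values were seen. The members and lists were chosen with earlier results of these data known. Replicate numbers were taken to pair the HCC1806 libraries, from the data alone: deviations of same-numbered libraries from their group means correlated at 0.479, 0.294 and 0.152 over 15918 genes; control 2 with PACT-depleted replicate 3, of different number, reached 0.351. In MDA-MB-468 they were not, and the main model had no replicate block in either line.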

Additional observations from a re-analysis of the deposited data

Results flagged for a closer look

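For 3 of the 36 named genes with counts in both lines, the depleted libraries lay on one side of their controls in HCC1806 and on the other side in MDA-MB-468, with no overlap in either line. Over all genes tested, 0.255% were lower in HCC1806 and higher in MDA-MB-468 in this way, as EGFR was, and 0.403% the reverse, as FRMD8 and PARM1 were. Genes other than the members were named for small p values in these data or after their values were seen. The 3 of 36 therefore cannot be compared with these shares. The difference of the effects, MDA-MB-468 minus HCC1806, was tested in edgeR and did not pass for EGFR, FRMD8 or PARM1. For EGFR it was 0.41 (SE 0.13, adjusted p = 0.371). For FRMD8, the iRhom-binding gene, the depleted libraries were above the controls in HCC1806 and below them in MDA-MB-468, and the difference was -0.57 (SE 0.16, adjusted p = 0.244). For PARM1, the neighbour of BTC, it was -1.95 (SE 0.57, adjusted p = 0.279), from means of 0.323 and 0.993 CPM in HCC1806 control and depleted libraries and 7.21 and 5.46 in MDA-MB-468. The difference of PARM1 passed with DESeq2 (adjusted p = 0.0278) and with no filter on low counts (0.0128).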

How the results depend on the processing

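The 9 baseline calls among the members held in all 12 fits with 1 library removed and with DESeq2, RLE size factors, library size only, no filter and the replicate block; at a mean of at least 50 counts ERBB3 was called and ERBB4 was not tested. ERBB3 at baseline changed sign with DESeq2 (-0.026), RLE size factors (-0.026), library size only (-0.24), a mean of at least 50 counts (-0.30) and the controls alone (-0.011), and ranged from -0.022 to 0.10 with 1 library left out. Genes called at baseline numbered 20068, and 13022 at a mean of at least 50 counts; with 1 library left out they ran from 18973 to 21248, and members called from 9 to 9.

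In HCC1806, 672 genes and 0 members were called; it was 1245 and 2 with DESeq2, 1351 and 2 with no filter, 1947 and 2 with the replicate block within each line, 668 and 1 with that block and the line alone, 949 and 0 with 1 replicate block for all libraries, 74 and 0 with the line alone, and 160 genes at an adjusted p under 0.01. ERBB3 turned to 0.048 with library size only, and ERBB4 to -0.039 and -0.0087 with the blocks within the line. Library size only raised the share of HCC1806 calls that were higher from 46.7% to 81.6%. With 1 library left out, genes called ran from 301 to 1792 and members from 0 to 2, AREG from -0.17 to 1.01, ERBB3 from -0.17 to 0.012, ERBB4 from -0.58 to 0.45 and TGFA from -0.37 to 0.65. The 1792 came without HCC1806 PACT-depleted replicate 1; counts lower by over 1.5 times came without HCC1806 control replicate 1 (301) or 2 (413), PACT-depleted replicate 2 (391) or an MDA-MB-468 control (437, 414 and 435).

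In MDA-MB-468, 46 genes were called, 113 with DESeq2, 143 with no filter, 102 with the block within each line, 22 at an adjusted p under 0.01, and 323 (1 member, HBEGF) with the line alone. With the block and the line alone it was 1031 genes and 3 members: EGFR (0.21, adjusted p = 0.00323), ERBB3 (-0.23, 0.00241) and HBEGF (0.52, 0.000971). Same-numbered libraries there correlated at 0.116, 0.0750 and 0.106, and control and depleted libraries of different number from -0.109 to 0.00375. The same-numbered values were below those of HCC1806, and the numbers were not taken as pairs. The correlations do not settle that choice. With 1 library left out, 19 to 98 genes and 0 to 0 members were called, and BTC ran from -0.13 to 0.18; the 98 came without HCC1806 PACT-depleted replicate 1. Without an MDA-MB-468 control (26, 21 and 21) or MDA-MB-468 PACT-depleted replicate 1 (21) or 3 (19), the count was under that of all libraries by over 1.5 times.

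For the difference of effects, 33 genes were called, 178 with DESeq2, 275 with no filter, 53 with the replicate block, 271 with the block within each line and 9 at an adjusted p under 0.01. With 1 library left out, 9 to 168 genes and 0 to 1 members were called, AREG ran from -0.64 to 0.54, ERBB4 from -0.64 to 0.39, EREG from -0.46 to 0.49 and TGFA from -0.54 to 0.47; the 168 came without HCC1806 PACT-depleted replicate 1, and 44 without replicate 3 was the 1 count within 1.5 times of 33. The cause of these changes was not tested. Where fewer libraries or genes enter, part of a change follows from that. Low counts limit ERBB4 and BTC in HCC1806 and ERBB4, EREG and NRG1 in MDA-MB-468.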

Other observations

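The chemokine genes that share chromosome 4q13.3 with EREG, AREG and BTC were also read in HCC1806. CXCL8, a neutrophil attractant, rose from 16.6, 11.7 and 10.8 CPM in controls to 49.7, 28.0 and 21.8 in PACT-depleted libraries, with no overlap (log2 fold change 1.34, SE 0.28, edgeR adjusted p = 0.0170). It did not pass with HCC1806 fitted alone (0.0879) or without HCC1806 control replicate 2 (0.0623) or 3 (0.0674). CXCL1 had 26.0, 11.4 and 17.7 CPM in controls and 64.5, 20.8 and 26.6 in depleted libraries, with overlap and an adjusted p of 0.144. CXCL2 was at 1.27 (adjusted p = 0.0684) and CXCL3 at 1.01 (0.250), and the ranges of neither overlapped. Depleted replicate 1 was the highest library for all 4 chemokine genes, as it was for EREG and AREG. MTHFD2L, between the chemokine genes and the ligand genes, had 11.6 to 14.6 CPM in controls and 11.9 to 15.0 in depleted libraries.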
